A study of Mus musculus with 16 samples.

Results

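The osteoblast lineage transcription factors *Runx2*, *Sp7*, *Dlx5*, *Dlx3*, *Dlx6*, *Msx2*, *Alx4*, *Runx1* and *Runx3* were taken by symbol from a table of raw RNA-seq counts of 16 mouse osteosarcomas. All 9 symbols were found, among the 25054 genes of the table. Tumors labeled KO (n = 8, from 8 mice, with no body site in the labels) carried OsxCreERT2+/-, p53fl/fl, Rb1fl/fl and Arid1afl/fl. Tumors labeled WT (n = 8, from 4 mice) carried the same alleles without floxed *Arid1a*, so that *Trp53* and *Rb1* were targeted in both groups. The mice had been given 400 µg/g of tamoxifen at 1 month of age, both sexes were used, and animals were older than 6 months. The Cre is driven by regulatory sequence of *Osterix*, which is the older name of *Sp7*, one of the factors measured here. Because tamoxifen was given months before the tumors were taken, *Sp7* RNA in a tumor does not show which cells were recombined. The WT tumors came from the limbs (right hind limb of N215, right femur, left limb and left shoulder of N42), the trunk (spine and pelvis of N43, right pelvis of N42) and the lung (N25).

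These genes encode the regulators that carry a mesenchymal cell into the bone-forming lineage. *Runx2*, a runt-domain factor, is needed for commitment to the osteoblast fate, and *Sp7*, a zinc-finger factor, acts after *Runx2* and is needed for osteoblasts to mature. The homeobox genes *Dlx3*, *Dlx5*, *Dlx6*, *Msx2* and *Alx4* act in patterning of the skull and limbs and in bone formation, with *Dlx5* responding to BMP signals. *Runx1* and *Runx3* share the runt domain of *Runx2* and act in cartilage and bone, and they are also regulators of blood cells and T cells.

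Between 1109487 and 15059640 counts fell on genes in a KO tumor and between 7806160 and 16962329 in a WT tumor. Ribosomal RNA features held 3.08% to 23.8% of the counts in the KO libraries Prince, Oregon, Medusa, Massa and Grilka. They held 0.516% to 0.934% in the KO libraries Zelda, Ohio and Montana, and 0.104% to 1.94% in WT. A level is given in CPM, which is the count scaled to a fixed library size after normalization by edgeR's TMM method. The TMM factor was 0.409 in Massa and 0.414 in Grilka, against 1.15 to 1.44 in the WT libraries. A low factor raises all CPM values of a library. Grilka had 1812818 counts. A count of 3 is worth 6.69 CPM in the KO library Massa and 4.03 CPM in the KO library Grilka, and 0.146 to 0.340 CPM in the WT libraries. In 5 libraries the summed markers of another tissue were over 10000 CPM. These were the KO tumors Montana and Oregon (skeletal muscle, 78206 and 134635 CPM), Massa (lung, 11271 CPM) and Prince (salivary gland, 114311 CPM), and the WT lung tumor of N25 (lung, 28781 CPM). The comparison of KO and WT is also given without these 5 libraries, a split chosen after the data were seen. The libraries that remain still differ in other tissue. Their skeletal muscle markers summed to 2.71 to 217 CPM in KO and 49.6 to 7511 CPM in WT. Grilka had 524 CPM of salivary gland markers, against at most 34.9 CPM in WT. Of the 4 remaining KO libraries, Zelda had 2014 CPM of liver and 1547 CPM of erythroid markers, against at most 27.0 and 17.5 CPM in the others. *Arid1a*, counted over the whole gene so that deleted exons cannot be told apart from the others, lay between 107 and 269.9 CPM in the tumors labeled KO and between 125 and 236 CPM in WT (log2 fold change 0.16, standard error, SE, 0.22, edgeR adjusted p = 0.715). Among markers of osteoblasts and osteocytes, *Bglap* and *Bglap2* had no count in Massa and in the N215 tumor, and *Dmp1* had none in Prince, whereas *Col1a1* was between 214 and 47558 CPM in all 16 tumors. The other markers did not follow *Col1a1* in this. Prince had 0.166 CPM of *Ibsp*, 0.415 of *Bglap* and 0.249 of *Phex*, beside 12.6 CPM of *Alpl*. Montana had 0.510 CPM of *Bglap* and of *Dmp1*, beside 14.3 CPM of *Ibsp* and 11.7 CPM of *Alpl*.

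*Runx2* (GRCm38 chr17:44495987-44814797, minus strand) varied more among KO than among WT tumors. In KO it was lowest in Montana at 6.89 CPM and Massa at 11.2 CPM, had a median of 134 CPM, and was highest in Medusa at 254, Ohio at 291 and Grilka at 551 CPM. The value of Grilka rests on 410 counts, in a library with a TMM factor of 0.414. In WT it was 28.2 CPM in the lung tumor and 59.8 CPM in the N215 tumor, had a median of 159 CPM, and reached 208 CPM in the pelvis tumor of N43. The WT range lay inside the KO range, with 2 KO tumors below it and 3 above it. The mean was 177 ± 187 CPM in KO and 143 ± 65.0 CPM in WT (SD, n = 8 and 8). Between the groups the log2 fold change of *Runx2* was 0.31 (SE 0.68, 95% interval −1.12 to 1.74, edgeR adjusted p = 0.830), and without the KO tumor Grilka it was −0.21. Without the 5 libraries rich in markers of another tissue it was 0.86 (SE 0.43, edgeR adjusted p = 0.224).

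*Sp7* (chr15:102356606-102367182, minus strand) spanned the widest range of log2 CPM among KO tumors of the 9 factors, with an SD of 4.04 against 1.52 in WT. There was no count in Massa and there were 2 counts, or 0.166 CPM, in Prince. Montana had 3.83, Oregon 11.7, Zelda 20.2, Medusa 119, Ohio 223 and Grilka 228 CPM. In WT the lung tumor had 5.49 CPM, and the 7 bone-site tumors lay between 56.3 CPM in the left limb of N42 and 147 CPM in the hind limb of N215. Of the KO tumors, 5 were below every bone-site WT tumor and 2 were above every WT tumor. For *Sp7* the log2 fold change was −0.25 (SE 0.96, 95% interval −2.26 to 1.77, edgeR adjusted p = 0.910), and it was 0.52 without the 5 libraries rich in markers of another tissue (adjusted p = 0.531).

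**Figure D1:**
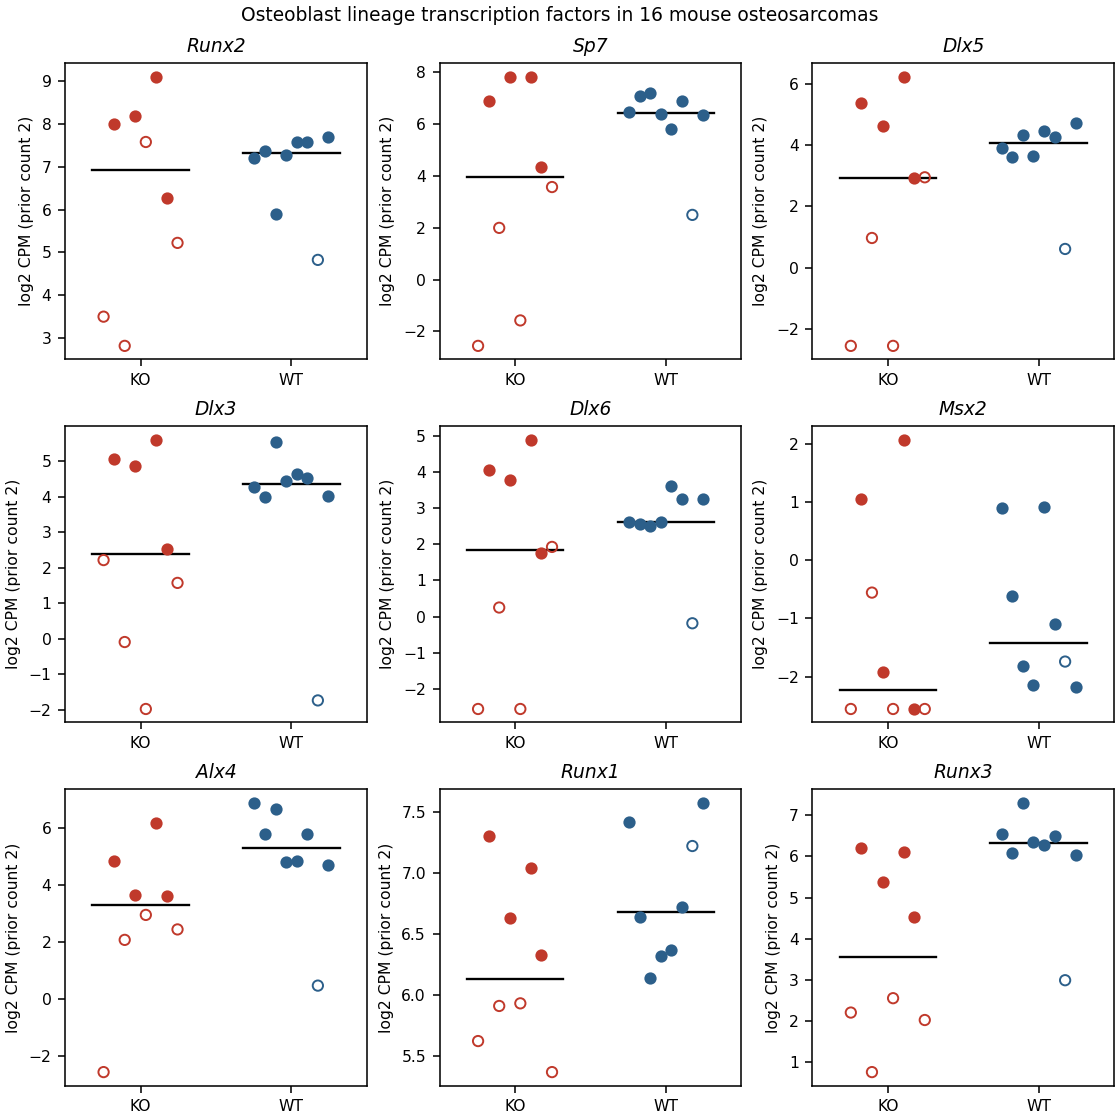
Log2 CPM (vertical axes, prior count of 2) of each of the 9 transcription factors in the 8 KO (red) and 8 WT (blue) tumors, with each point a tumor, open points the 5 libraries with over 10000 CPM of another tissue's markers, and black lines the group medians. For *Sp7*, 2 KO tumors sit above and 3 below all WT tumors, and every *Runx3* value of KO is below the WT median.

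*Dlx5* (chr6:6877805-6882085, minus strand) and *Dlx6* (chr6:6863334-6868568, plus strand) lie next to each other and are homeobox genes of the same cluster. *Dlx5* had no count in Massa and Prince, 1.79 CPM in Montana, 7.46 in Zelda, 7.55 in Oregon, 24.5 in Ohio, 41.6 in Medusa and 75.2 CPM in Grilka. In WT it was 1.36 CPM in the lung tumor and between 12.1 and 26.2 CPM at the bone sites. *Dlx6* followed the same order of low and high tumors in outline, from no count in Massa and Prince to 29.5 CPM in Grilka among KO, and from 0.710 CPM in the lung tumor to 11.97 CPM in the left limb of N42 among WT. The groups overlapped for both genes, with 2 KO tumors below all WT tumors for each, and 2 above for *Dlx5* and 3 above for *Dlx6*. KO against WT gave 0.28 for *Dlx5* (log2 fold change, SE 0.88) and 0.27 for *Dlx6* (SE 0.83), with an edgeR adjusted p = 0.884 for each. Without Grilka these were −0.39 and −0.27, and without Medusa that of *Dlx5* was −0.0028. Without the 5 libraries they were 0.98 (SE 0.46, edgeR adjusted p = 0.189) and 0.95 (SE 0.47, edgeR adjusted p = 0.220).

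*Dlx3* (chr11:95120119-95125296, plus strand), a homeobox gene of osteoblasts and of ectodermal organs, was highest in Grilka at 48.3 CPM among KO tumors and in N215 at 46.2 CPM among WT tumors. It was 33.4 CPM in Medusa and 28.6 CPM in Ohio, and no more than 5.63 CPM in the other 5 KO tumors. The other 6 bone-site WT tumors were between 15.8 and 24.8 CPM, and the lung tumor had 2 counts, or 0.129 CPM. *Dlx3* had a log2 fold change of −0.45 (SE 0.90, edgeR adjusted p = 0.813) and 0.24 without the 5 libraries (adjusted p = 0.787).

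*Alx4* (chr2:93642384-93681339, plus strand), a homeobox gene of limb and skull patterning, had a median of 9.96 CPM in KO and 42.3 CPM in WT. In KO it ranged from no count in Massa to 72.5 CPM in Grilka, and in WT from 1.23 CPM in the lung tumor to 104 CPM in N215 and 119 CPM in the spine tumor of N43. The groups overlapped, but 7 of 8 KO tumors were below the WT median, and Grilka was the exception. Its log2 fold change was −1.58 (SE 0.76, 95% interval −3.19 to 0.02), which did not pass the threshold (edgeR adjusted p = 0.223). Without Grilka it was −2.31 (adjusted p = 0.0807), and without the 5 libraries it was −1.01 (adjusted p = 0.299).

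*Msx2* (chr13:53466884-53473074, minus strand), a homeobox target of BMP signaling, was low throughout. It had over 3 counts in 1 KO and 4 WT tumors, most of all 31 in the spine of N43 and 34 in the left limb of N42, and 4 KO tumors had none. KO values ranged up to 4.03 CPM in Grilka, which rests on 3 counts, and WT values were between 0.0501 and 1.72 CPM. It was the only factor that did not pass the filter on low counts and was not tested over all 16 tumors.

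*Runx1* (chr16:92601466-92826149, minus strand) was the least variable of the factors, with an SD of log2 CPM of 0.68 in KO and 0.54 in WT. KO tumors lay between 41.1 CPM in Oregon and 158 CPM in Medusa with a median of 70.6 CPM, and WT tumors between 70.4 CPM in N215 and 191 CPM in the pelvis tumor of N43 with a median of 102 CPM. The 4 KO tumors below all WT tumors were Massa, Montana, Prince and Oregon. The WT lung tumor, lowest of its group for most other factors, had 149 CPM of *Runx1*. *Runx1* had a log2 fold change of −0.48 (SE 0.31, edgeR adjusted p = 0.369) and 0.03 without the 5 libraries (SE 0.32, adjusted p = 0.968).

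*Runx3* (chr4:135120652-135177990, plus strand) was below the WT median of 79.6 CPM in all 8 KO tumors. KO values were 1.53 CPM in Montana, 3.92 in Oregon, 4.46 in Massa, 5.73 in Prince, 23.1 in Zelda, 41.5 in Ohio, 68.5 in Grilka and 73.1 CPM in Medusa. WT values were 7.81 CPM in the lung tumor, 65.1 to 93.9 CPM in 6 bone-site tumors and 158 CPM in N215. The groups overlapped through the lung tumor and through Grilka and Medusa. Between the groups *Runx3* had a log2 fold change of −1.53 (SE 0.70, 95% interval −3.001 to −0.07, edgeR adjusted p = 0.198), and it was the only factor under 0.05 before adjustment. The value was −0.83 without the 5 libraries (SE 0.35, edgeR adjusted p = 0.144).

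Of the 9 factors, 8 were tested and 0 had an edgeR adjusted p-value under 0.05 between KO and WT, against a background of 4.01% of the 15413 genes tested. At an unadjusted p-value under 0.05 there was 1 of 8, against 23.0% of all genes. DESeq2 called 0 factors (background 12.5%), edgeR on counts summed per mouse called 0 (background 0.0625%), and edgeR without the 5 libraries called 0 of 9 (background 6.91%). For 0 factors were the CPM ranges of KO and WT apart, and 0.415% of the tested genes had such ranges. A two-sided exact permutation test over the 8 KO and 4 WT mice, with all splits of the mice into these numbers, gave its lowest p-values for *Runx3* (p = 0.147, log2 difference −1.97), *Runx1* (p = 0.216, −0.54) and *Alx4* (p = 0.329, −1.77), and for *Runx2* p = 0.976 with a difference of −0.04. The log2 difference farthest from 0 was that of *Sp7*, −2.17 (exact permutation p = 0.380), and limma with the mouse as a random effect gave −2.03 for *Sp7* (SE 1.39, adjusted p = 0.713), against −0.25 in edgeR. The intervals of the fold changes are wide, and a missed threshold does not show that the groups had equal levels. In these bulk tumors, fewer cells of a type and less RNA per cell cannot be told apart.

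**Figure D2:**
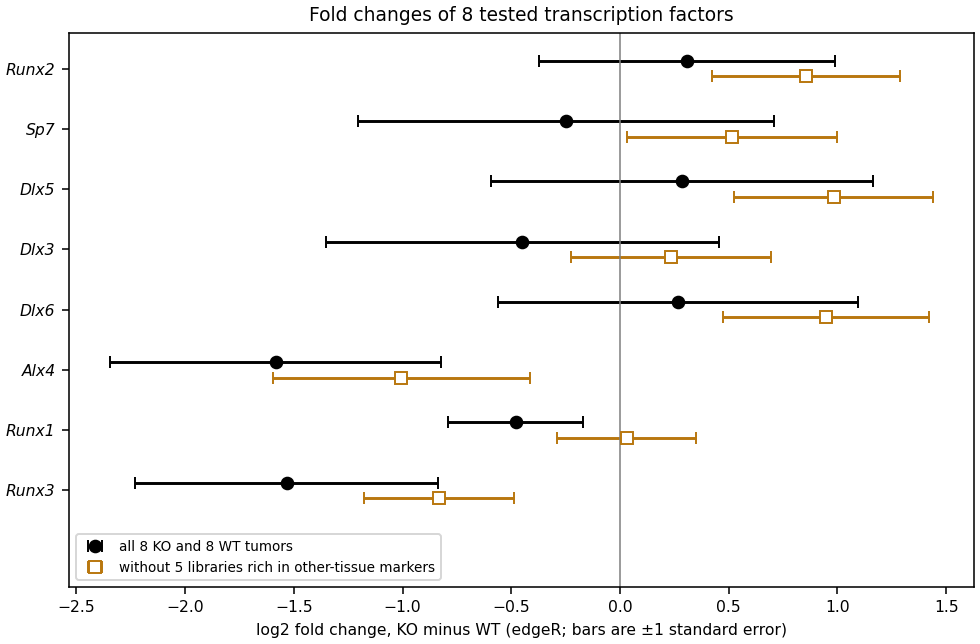
Log2 fold changes, KO minus WT, of the 8 tested factors (horizontal axis) from edgeR, with bars of ±1 standard error (SE), for all 16 tumors (black) and without the 5 libraries rich in markers of another tissue (open squares). *Alx4* and *Runx3* sit at −1.58 and −1.53 with all tumors and at −1.01 and −0.83 without the 5 libraries, and *Sp7*, *Dlx3* and *Runx1* change sign.

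The levels of most factors were lower in the libraries rich in another tissue's markers, which is given as a description. In the 4 KO libraries with over 10000 CPM of such markers the mean was 3.93 ± 5.50 CPM for *Sp7*, 2.33 ± 3.58 CPM for *Dlx5* and 3.91 ± 1.76 CPM for *Runx3* (SD, n = 4). In the 4 other KO libraries it was 148 ± 98.7, 37.2 ± 28.9 and 51.5 ± 23.5 CPM. For *Runx1* the means were 52.7 ± 9.42 and 117 ± 34.4 CPM. The target list of osteoblasts (20 genes, among them *Col1a1*, *Ibsp* and *Spp1*) summed to 867 to 3103 CPM in the former, and to 12181 to 63582 CPM in the latter. By group, the 10 skeletal muscle genes summed to 2.23 to 134635 CPM in KO and 8.33 to 7511 CPM in WT, the 8 lung genes to 0.280 to 11271 and 7.37 to 28781 CPM, and the 8 salivary gland genes to 6.04 to 114311 and 2.78 to 34.9 CPM. In the 5 libraries no gene of the list in question was at 0. The 10 proliferation genes, among them *Mki67*, moved with the same split, with sums of 15.05 to 62.5 CPM in the 4 KO libraries rich in another tissue's markers, 871 to 2095 CPM in the 4 others and 150 to 979 CPM in WT. Among those 4 others Zelda, with its liver and erythroid markers, was the lowest for *Sp7*, *Dlx5* and *Runx3*. The part of the foreign tissue, of proliferation and of the depth of Massa in the levels of the factors was not tested.

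Prince stood apart by the order of its factors. It held 191 CPM of *Runx2*, from 2302 counts, beside 2 counts of *Sp7*, 1 of *Dlx3* and none of *Dlx5* and *Dlx6*, in a library where 3 counts are worth 0.249 CPM. *Sp7* made up 0.0868% of the counts of *Sp7* and *Runx2* together (2 of 2304, 95% Wilson interval 0.0238% to 0.316%). In the 14 other tumors with at least 20 counts on the pair this share was between 16.3% in the WT lung tumor and 71.1% in N215, and the intervals of Prince and of these tumors do not overlap. The cells that held the *Runx2* RNA of this tumor cannot be told from bulk counts.

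The N215 tumor was the WT tumor with the highest *Sp7* share, 71.1% (interval 69.0% to 73.1%), at low *Runx2* (59.8 CPM) and the highest *Sp7* of its group. It also had the largest share of *Runx3* in the counts of *Runx3* and *Runx1*, 69.1% (interval 67.1% to 71.1%), whereas the other WT bone-site tumors were between 25.5% and 50.7%. Its osteoblast target genes summed to 4738 CPM, the lowest of the 7 bone-site WT tumors, and *Ibsp*, a matrix sialoprotein gene activated in osteoblasts, was at 3.29 CPM. The *Runx3* share was 4.98% in the WT lung tumor and from 2.49% to 8.70% in the 4 KO libraries rich in another tissue's markers, and it was 22.3% to 34.2% in the other 4 KO tumors. The share of *Dlx6* in the counts of *Dlx5* and *Dlx6* moved least, between 21.8% and 35.6% in the 13 tumors with at least 20 counts on the pair. Intervals of shares cover counting error only.

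**Figure D3:**
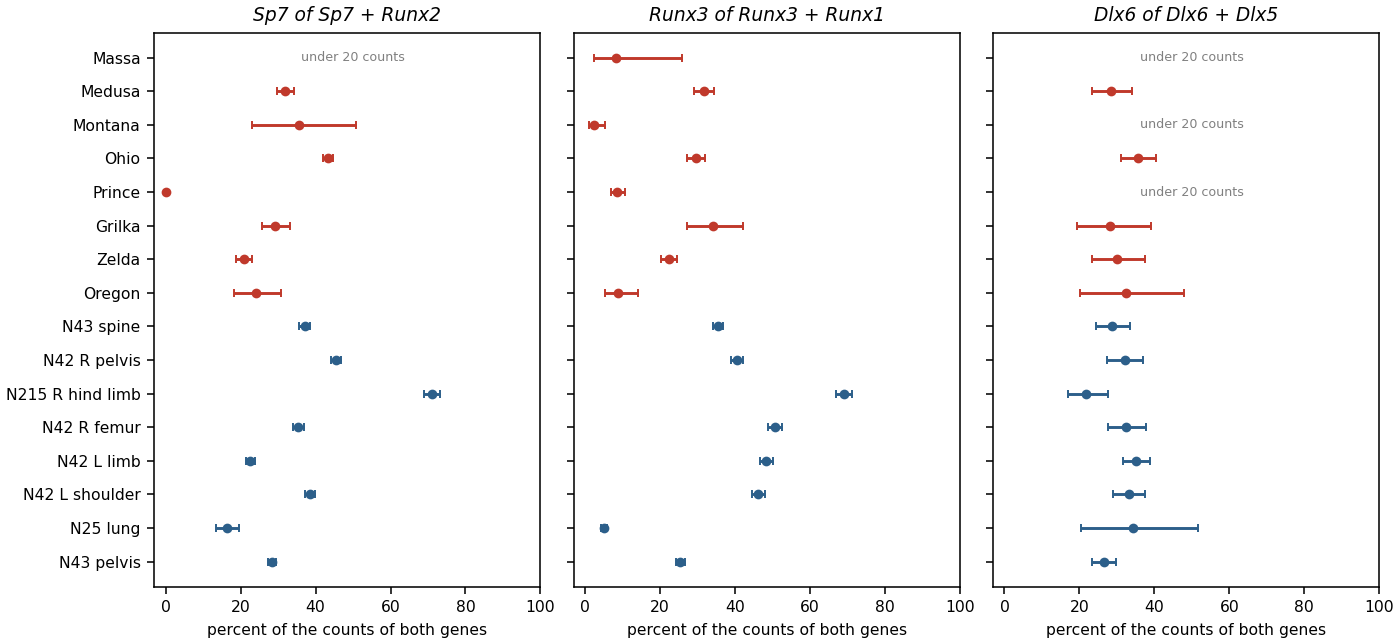
Share of the first gene in the summed counts of a pair of factors (horizontal axes, percent, with 95% Wilson intervals) in each of the 16 tumors, KO in red and WT in blue. *Sp7* is at 0.0868% in Prince and 71.1% in N215, *Runx3* spans 2.49% to 69.1%, and *Dlx6* stays between 21.8% and 35.6% in the 13 tumors with at least 20 counts on the pair.

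Per kilobase of exon in GENCODE models, the order of mean levels in the 7 bone-site WT tumors was *Sp7* (30.01 ± 9.74 CPM per kb), *Runx3* (18.1 ± 6.29), *Runx2* (18.0 ± 5.56), *Runx1* (9.49 ± 3.94), *Dlx3* (9.13 ± 3.999), *Alx4* (8.46 ± 5.36), *Dlx5* (7.97 ± 2.33), *Dlx6* (3.24 ± 1.07) and *Msx2* (0.193 ± 0.230; SD, n = 7). *Sp7* was above *Runx3* and *Runx2* above *Runx1* in 7 of 7 tumors, although the ranges overlapped. These tumors came from only mice N42, N43 and N215, and tumors of one mouse are not independent. The length is the union of all annotated exons, 12025 bases for *Runx1*, 8837 for *Runx2* and 3398 for *Sp7*. The order between genes therefore depends on the annotation. Of the neighbors in this order, *Runx3* and *Runx2*, *Runx1* and *Dlx3*, *Dlx3* and *Alx4*, and *Alx4* and *Dlx5* did not differ beyond their spread. The gene with the higher mean was above the other in 2, 3, 5 and 3 of the 7 tumors in these pairs. The ranges of *Dlx5* and *Dlx6*, and those of *Dlx6* and *Msx2*, did not overlap. In the 4 KO tumors with less than 10000 CPM of another tissue's markers *Sp7* was at 43.5 ± 29.1, *Runx2* at 33.2 ± 22.1, *Dlx5* at 16.4 ± 12.8 and *Runx3* at 10.3 ± 4.71 CPM per kb (SD, n = 4).

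**Figure D4:**
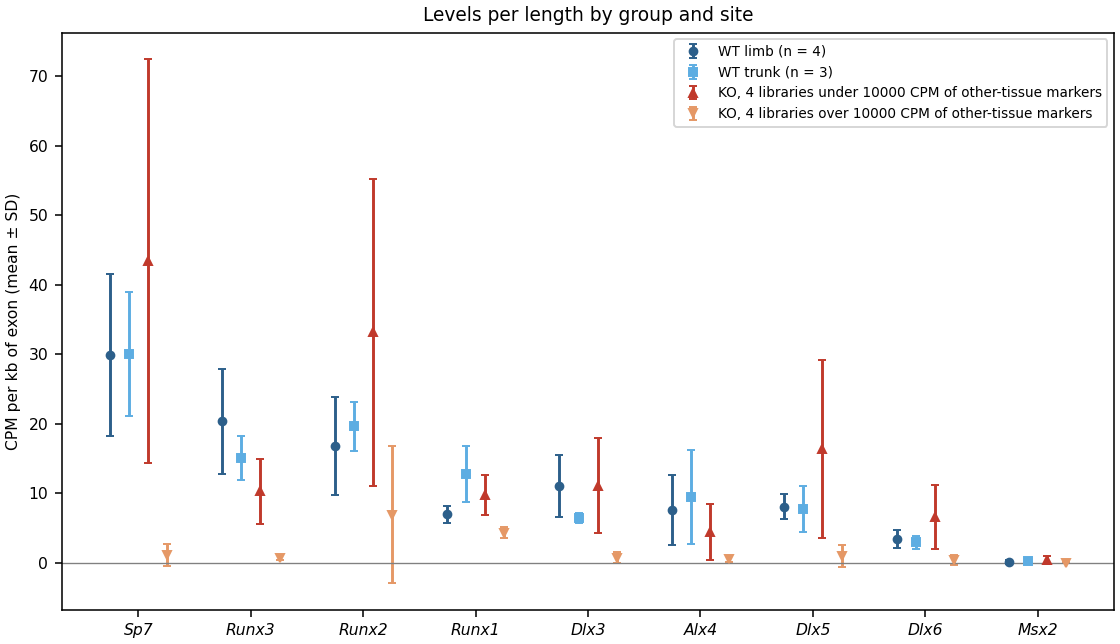
Mean level per kilobase of exon (vertical axis, CPM per kb, bars are ±1 SD) of the 9 factors in WT limb tumors, WT trunk tumors, and KO tumors with less or more than 10000 CPM of another tissue's markers. *Sp7* stands at 29.9 and 30.1 in limb and trunk WT tumors, and at 43.5 and 1.16 in KO tumors with less and more of the other markers.

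By site, the 4 limb and 3 trunk WT tumors were compared with edgeR over 17131 genes. In this comparison 0 of 8 tested factors were called, as were 0% of all genes, and 2 factors had an unadjusted p-value under 0.05, against 3.74% of all genes. *Runx1* was 84.5 ± 14.8 CPM in limb and 154 ± 48.0 CPM in trunk tumors (SD, n = 4 and 3), a log2 difference of −0.88 (SE 0.28, edgeR adjusted p = 0.974). *Dlx3* was 28.9 ± 11.6 CPM in limb and 17.02 ± 1.88 CPM in trunk tumors, a log2 difference of 0.74 (SE 0.31, edgeR adjusted p = 0.974). The trunk tumors high in *Runx1* were those of mouse N43, at 171 CPM in the spine and 191 CPM in the pelvis, while the pelvis tumor of N42 had 99.5 CPM. Within N42 the mean of the 3 limb tumors differed from the pelvis tumor by −0.18 for *Runx1* and 0.54 for *Dlx3* on the log2 scale. *Runx2*, *Sp7* and *Dlx5* differed between limb and trunk by −0.23, −0.03 and 0.04 (SEs 0.41, 0.36 and 0.35). Site and mouse are partly tied in these tumors, since 3 of 4 limb tumors are from N42 and 2 of 3 trunk tumors from N43. With the mouse as a term in the edgeR fit, a setting added after the data were seen in which only N42 informs the site, the log2 difference was −0.17 for *Runx1* (SE 0.28) and 0.54 for *Dlx3* (SE 0.28), and 0 factors and 0 genes were called.

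Over the 12 mice, with counts summed per mouse, 13 pairs of factors or lists were correlated, and 7 passed an adjusted p-value of 0.05 in Spearman's test. *Dlx5* and *Dlx6* had a Pearson r of 0.995 (permutation p = 1e-05, the smallest that 100000 resamples can give, adjusted p = 6.5e-05) and a Spearman rho of 0.972 (adjusted p = 0.00013), and r was 0.987 without the 2 mice farthest from the median of *Dlx5*. For *Sp7* and *Dlx5* r was 0.980 and rho 0.928 (permutation adjusted p = 6.5e-05 and 0.00039), and r was 0.938 without the 2 farthest mice. For *Sp7* and *Dlx3* r was 0.780 and rho 0.881 (permutation p = 0.00352 and 0.00034, adjusted 0.00915 and 0.00147), and r was 0.955 without the 2 farthest. For *Runx2* and *Sp7* r was 0.625 and rho 0.699 (permutation p = 0.0290 and 0.0140, adjusted 0.0539 and 0.0260), and r was 0.393 without the 2 farthest. For *Runx1* and *Runx3* r was 0.611 and rho 0.608 (permutation adjusted p = 0.0588 and 0.0580), and r was 0.496 without the 2 farthest.

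Among the 7 mice without libraries rich in another tissue's markers, 0 of 13 pairs passed the adjusted threshold in Spearman's test, where 5040 orders are possible, and 3 had an unadjusted p-value under 0.05. In these mice r was 0.954 and rho 0.893 for *Dlx5* and *Dlx6* (exact permutation p = 0.00238 and 0.0123), and r was 0.931 and rho 0.786 for *Sp7* and *Dlx3* (exact permutation p = 0.00635 and 0.0480). By Pearson's r these 2 pairs passed after adjustment over the 13 pairs (exact permutation adjusted p = 0.0310 and 0.0413). *Runx2* and *Sp7* had an r of 0.604 and a rho of 0.571 there (exact permutation p = 0.153 and 0.200). *Runx2* and *Dlx5* had a rho of 0.857 there (exact permutation p = 0.0238) and of 0.725 over the 12 mice. The mean of the osteoblast target list had a rho of 0.776 with *Sp7* and of 0.781 with *Dlx5* over the 12 mice (permutation adjusted p = 0.0109 for each), and of 0.286 and 0.214 among the 7 mice (exact permutation p = 0.556 and 0.662). *Runx1* and *Runx3* had a rho of −0.11 among the 7 mice (exact permutation p = 0.840). The mean of 8 white blood cell genes, such as *Ptprc* and *Laptm5*, had a rho of 0.573 with *Runx1* and of 0.566 with *Runx3* over the 12 mice (permutation adjusted p = 0.0656 for each), and of −0.14 and −0.25 among the 7.

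**Figure D5:**
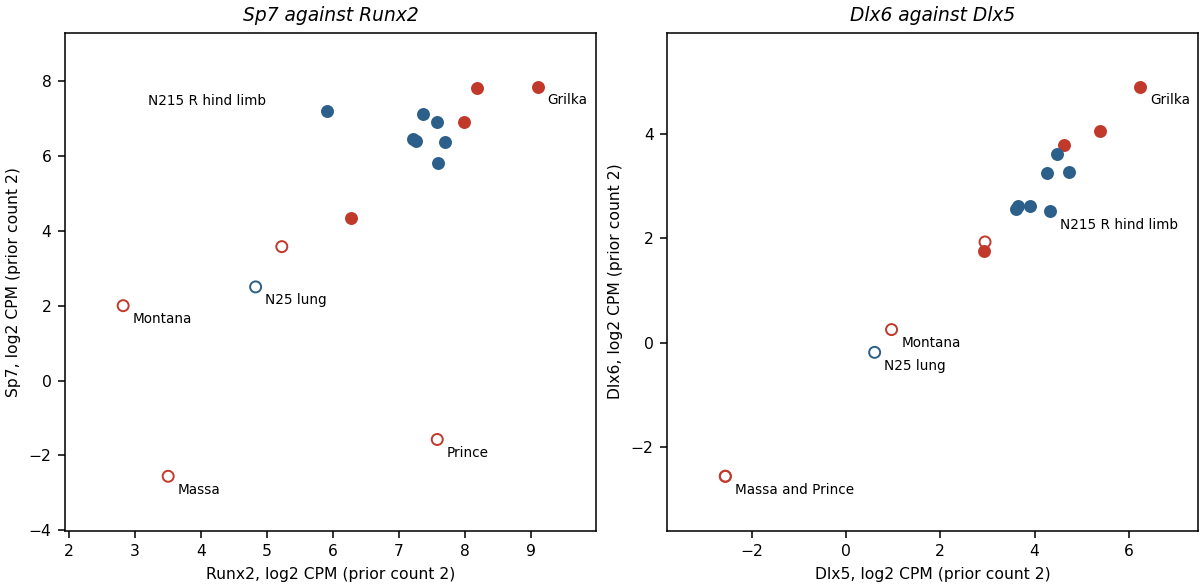
*Sp7* against *Runx2* and *Dlx6* against *Dlx5*, in log2 CPM with a prior count of 2, each point a tumor (KO red, WT blue, open points the 5 libraries rich in another tissue's markers). Prince sits at 191 CPM of *Runx2* and 0.166 CPM of *Sp7*, away from the other tumors, while *Dlx5* and *Dlx6* run together from no count in Massa and Prince to 75.2 and 29.5 CPM in Grilka.

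The genes whose order over the 12 mice was most like that of a factor were named by Spearman's rho, as a description across points that share library and depth. For *Runx2* they were *Creb3l1* (0.979), *Rrbp1* (0.958) and *Fam102a* (0.958), and for *Sp7* they were *Foxm1*, *Ankrd6* and *Myc* (0.972 each). For *Dlx5* they were *Gm49601* (0.974), *Dlx6* and *Slc6a7* (0.972 each). For *Runx1* they were *Flna* (0.951), *Tnc* and *Gm10125* (0.881 each), and for *Runx3* they were *Mmp17* (0.951), *Gxylt1* (0.944) and *Tpbg* (0.937). Ties in rho were ordered by Pearson's r, and for *Runx1* 1 further gene had the same rho as *Tnc* and *Gm10125*.

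The runt-domain genes share a sequence feature near a start site. Windows from 250 bases before to 50 bases after RefSeq starts (GRCm38.p6) were available for 4 of the factors, namely *Runx1*, *Runx2*, *Runx3* and *Msx2*. The motif AACCACA, a binding sequence of runt-domain factors, was searched on both strands. It was found in 5.27% of 32851 windows, and a pair of copies with 1 base between them (AACCACANAACCACA) in 5 windows, or 0.0152%. These windows belonged to *Runx1*, *Runx2*, *Runx3*, *Olfr24* and *Gm16225*, and that of *Gm16225* overlaps the *Runx3* window on the other strand. The 30 bases around the pair are given for the 3 genes, with the pair and its spacer base in capitals. The capitals other than the spacer are the same because the windows were found by them. In the lower-case bases *Runx1* and *Runx2* are alike at most positions, and *Runx3* differs from both at most positions.
*Runx1*: tcataaacAACCACAGAACCACAagttggg
*Runx2*: tcacaaacAACCACAGAACCACAagtgcgg
*Runx3*: ggtccctcAACCACAGAACCACAaggccag
The stretches lie at chr16:92826026-92826055 (minus strand), chr17:44814584-44814613 (minus strand) and chr4:135120502-135120531 (plus strand). The pair began at base 28 of the transcript for *Runx1* and base 23 for *Runx2*, and 135 bases before the start for *Runx3*. A second window of *Runx1*, a second window of *Runx3* and the window of *Msx2* held no copy. A match is a description of the letters, and counts per gene do not separate transcripts from the 2 starts of *Runx1* or *Runx3*.

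Genes that overlap a factor were also counted. *Runx2os1*, on the strand opposite to *Runx2* and sharing 519 exon bases with it in the annotation, was called higher in KO (12.96 ± 22.4 against 1.34 ± 0.997 CPM, log2 fold change 3.22, SE 0.88, edgeR adjusted p = 0.0486). It had 232 counts in Prince and between 0 and 53 in the other KO tumors, and 8 to 41 counts in WT. Its level was 65.8 CPM in Grilka, from 49 counts, 19.3 CPM in Prince and 11.2 CPM in Medusa, and no more than 3.29 CPM elsewhere. Without Grilka the log2 fold change of *Runx2os1* was 2.10 (SE 0.70, edgeR adjusted p = 0.0953), and without the 5 libraries it was 3.69 (edgeR adjusted p = 0.0338). The call was lost in 19 of 27 alternatives, among them limma with the mouse (1.77, adjusted p = 0.582) and counts summed per mouse (2.99, edgeR adjusted p = 0.609). It was also lost with the ribosomal RNA covariate (0.33, edgeR adjusted p = 0.951). *Dlx6os1*, which spans *Dlx6* on the opposite strand and shares no exon bases with it, did not pass the threshold (log2 fold change −0.06, SE 0.83, edgeR adjusted p = 0.975). Whether counting used strand is not given in the sources used here, and without strand reads of a gene and of its antisense partner cannot be told apart where exons overlap.

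The partners, inputs and targets of the factors were described as lists, beside a median log2 fold change of 0.10 over all genes tested. Of all genes tested, 4.01% were called in edgeR, 6.91% in edgeR without the 5 libraries and 12.5% in DESeq2. A single call in a list of this size is not read as a result about the list. Of 20 partners and modifiers of *Runx2* and *Sp7*, all tested, 0 were called and the median was 0.06. When the 5 libraries were left out 1 of the 20 was called, against 6.91% of all genes. This was *Wwtr1*, which encodes the co-activator TAZ and was lower in KO (log2 fold change −1.14, edgeR adjusted p = 0.0464). Of 17 BMP and Wnt inputs, 16 were tested, 14 had a value below 0 and 1 was called, *Axin2*, a feedback target of Wnt signaling (35.3 ± 15.2 CPM in WT and 14.1 ± 6.61 CPM in KO, log2 fold change −1.33, SE 0.35, edgeR adjusted p = 0.0408). Its call was lost in 16 of 27 alternatives, among them limma with the mouse and counts summed per mouse (adjusted p = 0.533 and edgeR adjusted p = 0.598). Without the 5 libraries *Axin2* (−1.46, edgeR adjusted p = 0.0292) and the BMP receptor gene *Bmpr2* (−1.14, edgeR adjusted p = 0.0346) were called lower. Of 20 osteoblast targets, 18 were tested in edgeR, 12 had a value below 0, 0 were called and the median was −0.81. DESeq2 over the same tumors tested 20 and called 5 lower in KO (*Bglap*, *Bglap2*, *Omd*, *Alpl* and *Spp1*), against 12.5% of all genes. Limma with the mouse and edgeR on counts summed per mouse called 0 of these targets. When the 5 libraries rich in another tissue's markers were left out all 20 were tested, the median was −0.21, and 1 was called higher in KO, *Mepe*, a matrix gene of osteocytes (log2 fold change 4.90, SE 1.37, edgeR adjusted p = 0.0492). *Mepe* had no count in Grilka, one of the 4 KO libraries of this fit, or in the WT tumor of N215. This split was not fitted with the mouse taken into account. *Spp1*, which encodes osteopontin, had the value farthest below 0 among the 3 most abundant targets at −2.95 (SE 0.96, edgeR adjusted p = 0.0826). Of 11 related homeobox genes, 6 were tested and 0 were called, with *Prrx1*, a limb mesenchyme gene, at 456 ± 253 CPM in WT and 114 ± 74.3 CPM in KO (log2 fold change −2.002, edgeR adjusted p = 0.0531). *Prrx1* was called lower without the 5 libraries (−1.68, SE 0.46, edgeR adjusted p = 0.0453), the 1 call among 9 tested. Of 8 genes of other mesenchymal fates, 0 were called (median 0.55), and of 7 cartilage genes, 6 were tested and 0 were called. Each of these lists had 1 gene called lower without the 5 libraries, *Cebpa*, a regulator of fat cells (−1.17, edgeR adjusted p = 0.0284), and *Comp*, a cartilage matrix gene (−3.67, edgeR adjusted p = 0.0281). Beyond the osteoblast targets, DESeq2 called the partner *Hdac3* higher, *Axin2* and *Prrx1* lower, *Sox6* and *Sox9* of the other fates higher, and the cartilage gene *Matn3* lower. These were 1 of 20 partners and 1 of 17 inputs, against 12.5% of all genes. They were also 1 of 10 homeobox genes, 2 of 8 genes of other fates and 1 of 6 cartilage genes.

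Blood cell markers were set beside *Runx1* and *Runx3*, which those cells also express. Of 10 macrophage genes, 9 were called lower and 0 higher in KO, against 4.01% of all genes tested called in either direction. An example was *C1qa* (33.3 ± 12.6 against 165 ± 81.5 CPM, log2 fold change −2.30, SE 0.37, edgeR adjusted p = 0.00476). The list summed to between 198 and 756 CPM in KO and between 443 and 2083 CPM in WT. The tumors of mice N42 and N43 held 1252 to 2083 CPM. Those of N215 and N25, at 515 and 443 CPM, lay inside the KO range. Of 8 white blood cell genes 1 was called, *Laptm5*, which was lower in KO (log2 fold change −1.87, edgeR adjusted p = 0.0314), and none had a count of 0 in any tumor. DESeq2 called 5 of these 8 genes lower, *Laptm5* among them, against 12.5% of all genes. In the edgeR fit without the 5 libraries 8 macrophage genes and 0 white blood cell genes were called, against 6.91% of all genes. The fits that take the mouse into account called 0 macrophage genes, namely limma with the mouse as a random effect and edgeR on counts summed per mouse, as did edgeR without the tumors of N42. In the fit on counts summed per mouse 9 of 10 had an unadjusted p-value under 0.05, against 7.88% of all genes. The log2 fold change of *C1qa* was −1.53, −1.78 and −1.56 in these (adjusted p = 0.274 in limma, edgeR adjusted p = 0.267 and 0.330). *C1qa* was past the threshold in 22 of 27 alternatives and *Laptm5*, whose call was also lost in those 3, in 12. The call of *C1qa* was also lost with the ribosomal RNA covariate (log2 fold change −1.56, edgeR adjusted p = 0.375). Of 10 T and NK cell genes 2 were tested and 0 were called, and their sum was 92.2 CPM in the KO tumor Zelda and 30.01 CPM or less elsewhere. Zelda also had the highest sum of white blood cell genes, 1583 CPM, with 23.1 CPM of *Runx3* and 80.3 CPM of *Runx1*. The part of blood cells in the levels of *Runx1* and *Runx3* was not tested.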

How the data were processed

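RNA from 16 mouse osteosarcomas was depleted of ribosomal RNA and sequenced from one end. Per the paper and the labels, the authors aligned reads with Novoalign 2.08.01 to mm10 with Ensembl transcripts, allowing repeated alignments, and made counts per gene with USeq before DESeq2 1.26.0. The deposited raw counts were used. The strand of the libraries and any batch are not given in the sources used here.

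The 9 factors were selected by symbol. The factors and the other gene lists were chosen with earlier results of these data known. Groups and mice came from the labels, with tumors of one animal code treated as one mouse. edgeR 4.0.16 (TMM, filterByExpr at its defaults of 10 counts and a total of 15, glmQLFTest, Benjamini-Hochberg adjustment over all genes tested, two-sided) was fitted over 15413 genes and left out 9641. KO and WT tumors were compared, then limb and trunk WT tumors. Within a mouse tumors are not independent, so p-values over tumors partly measure spread within mice. Permutation tests over mice used log2 CPM with a prior count of 2. Their p-values are given unadjusted, although an adjustment over the 9 factors had been planned. Before any adjustment 0 factors had a permutation p-value under 0.05. Alternatives were DESeq2 1.42.0, limma 3.58.1 with the mouse as a random effect, DESeq2 size factors, no filter, a ribosomal RNA covariate and sets of left-out tumors. Positions and exon lengths came from GENCODE vM21 (GRCm38) and promoter windows from RefSeq. Named genes were all 9 factors, of each other list those past the threshold (at most 4) and the 3 most abundant, and the 3 genes most like *Runx2*, *Sp7*, *Dlx5*, *Runx1* and *Runx3*. Only some of these are printed, and the result of 1 gene that the rule covers is not reported here.

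Of the lists used as markers, edgeR called 0 genes among the tested genes of skeletal muscle (10), proliferation (10), epithelium (3), erythroid cells (3), lung (1) and liver (1). In the salivary gland list edgeR tested and called 1 gene, *Egf*, with 11703 ± 32788 CPM in KO and 4.78 ± 3.38 CPM in WT (SD, n = 8 and 8). DESeq2 called 5 of 8 epithelium and 3 of 6 salivary gland genes higher in KO, against 12.5% of all genes. It called 1 of 7 erythroid and 1 of 3 lung genes lower. Without the 5 libraries rich in another tissue's markers, 1 proliferation gene was called higher in KO (*Mki67*, log2 fold change 2.39, edgeR adjusted p = 0.0174), 1 muscle gene lower (*Actn3*, −4.54, edgeR adjusted p = 0.0479), and *Egf* higher (4.02, edgeR adjusted p = 0.0338). In this fit 10 of 10 muscle genes had an unadjusted p-value under 0.05, against 26.6% of all genes. Their median log2 fold change was −4.43, so the split is not free of other tissue.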

Additional observations from a re-analysis of the deposited data

Results flagged for a closer look

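Values far from the others of their group were sought in log2 CPM with Dixon's test for each of the 9 factors in KO and in WT, 18 tests in all, of which 7 were past the 95% critical value of 0.526 for 8 tumors. Chance gives about 1 in 20 for a single test. The 18 tests are not independent, since they share tumors and several factors are correlated. In 6 of the 7 the sample was the WT lung tumor of N25, which was the lowest of its group, with 5.49 CPM of *Sp7* (next tumor 56.3), 1.36 CPM of *Dlx5* (next 12.1), 0.129 CPM of *Dlx3* (next 15.8), 0.710 CPM of *Dlx6* (next 5.56), 1.23 CPM of *Alx4* (next 25.8) and 7.81 CPM of *Runx3* (next 65.1). The same library had 149 CPM of *Runx1*, inside the range of its group, and 28781 CPM of lung markers. The remaining value was *Alx4* at 0 CPM in the KO tumor Massa, whose next tumor had 4.08 CPM; in Massa a count of 3 is worth 6.69 CPM.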

How the results depend on the processing

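The 27 alternatives of the KO and WT comparison called 0 factors each, and the 3 tested alternatives of limb against trunk called 0. Of 216 refitted fold changes of the factors, 197 kept their direction. The direction turned for *Runx2* (0.31) to −0.0401 in limma with the mouse, −0.0448 without Massa and Grilka and −0.13 with the ribosomal RNA covariate; for *Dlx5* (0.28) to −1.28, −0.24 and −0.93 and for *Dlx6* (0.27) to −0.78, −0.16 and −0.48 in the same settings; for *Sp7*, *Dlx3* and *Runx1* to 0.89, 0.54 and 0.0741 with only Medusa and Ohio as KO and to 0.52, 0.24 and 0.0309 without the 5 libraries rich in other tissue. Leaving out single tumors gave −0.21 to 0.49 for *Runx2*, −0.39 to 0.48 for *Dlx5* and −0.27 to 0.47 for *Dlx6*. *Runx2* in limb against trunk turned to 0.0350 without N215 and to 0.11 with the mouse as a term. The adjusted p-value of *Alx4* ranged from 0.0807 to 0.807 and that of *Runx3* from 0.120 to 0.704. Genes called over the table were 618 in the main fit and 2517 with DESeq2. They were 17 in limma with the mouse, 10 per mouse, 8 without N42 and 7 with the ribosomal RNA covariate. They were 1195 without the 5 libraries, and 252 to 1348 without single tumors. The ribosomal RNA share reached 23.8% in KO and 1.94% in WT, so this covariate is partly tied to genotype. Of the 13 correlations, in Spearman's test 7 passed over mice, 11 over the 16 tumors and 0 over the 7 mice, where 2 passed by Pearson's r. Over the 7 mice rho turned to −0.11 for *Runx1* and *Runx3*, and to −0.14 and −0.25 for white blood cells with *Runx1* and *Runx3*. The cause of the changes between settings was not tested. No paired analysis was possible because no mouse gave tumors to both groups. Depth limits the low factors in Massa, and *Msx2* in the 11 tumors with 3 counts or fewer. The high CPM values of Grilka rest on a library of 1812818 counts with a TMM factor of 0.414.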
